A study of Homo sapiens with 8 samples.

Results

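The 5 dopamine receptor genes, DRD1, DRD2, DRD3, DRD4 and DRD5, were followed in neural cultures grown from H1 cells, a human embryonic stem cell line. They were taken by name from the 60286 genes of a single-cell RNA matrix with 43693 cells, and all 5 were present. Cells had been barcoded by split-pool ligation and sequenced as 8 sublibraries, which are portions of 1 barcoded pool and not conditions. The name of each cell holds a culture tag, and 46 tags fell into 17 groups of 2 to 4 tags.

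The cultures are named here by the codes of the cell names, because no label spells the codes out; the labels list dopamine, cocaine, morphine and untreated cultures, 2-D and 3-D, without tying them to codes. The groups 2DCocu AcCoc, 2DCocu AcMor and 2DCocu Vehic had 4 tags each. The groups 2DMono AcDop, 2DMono AcMor and 2DMono Vehic had 2 tags each, as did 3DMono AcDop, 3DMono AcMor and 3DMono Vehic. The group 3DFusi AcCoc had 4 tags, and 3DFusi AcMor and 3DFusi Vehic had 3 each. Of the groups without a treatment code, 2DProto2Fjo, 2DProto3Wu_ and 2DProto4Nic had 2 tags each and 3DProto1For and 3DProto2Xia had 3 each. All groups share the H1 line, so 1 genetic background stands behind every value. The labels give the cell type of the line, embryonic stem cell, and its defining markers were nearly absent: POU5F1 reached 0.809 CPM and NANOG 0.406 CPM over all cells, and 6 such markers summed to 0.391 to 8.39 CPM per tag, against 1740 to 3896 CPM for 8 neuron markers. CPM is the usual scaling of counts by the total of the same tag, group or cluster, with the unit spelled out on the plot axes. Doses, exposure times and culture ages were not given in the sources used here. Nor is it stated whether the tags of a group were separate cultures, so the p-values measure only the spread between tags, which may be technical.

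Dopamine receptors are G protein-coupled receptors with a D1 class (DRD1, DRD5), which couples to the stimulatory G proteins encoded by GNAS and GNAL and raises cyclic AMP, and a D2 class (DRD2, DRD3, DRD4), which couples to inhibitory G proteins and lowers it. In the striatum DRD1 marks medium spiny neurons of the direct pathway, and DRD2 marks those of the indirect pathway together with the adenosine receptor gene ADORA2A and the enkephalin gene PENK. DRD2 is also the autoreceptor of dopamine neurons, DRD3 is best known from the ventral striatum, and DRD4 from cortex and retina. DRD5 is expressed at low levels in cortex and hippocampus.

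Positions are those of GENCODE v29 on GRCh38, given from start to end. DRD1 lies at chr5:175440039-175444208 on the minus strand with 2 exons, and DRD2 at chr11:113409615-113475691 on the minus strand with 3 to 8 exons in its 10 transcripts. DRD3 lies at chr3:114128652-114199407 on the minus strand with 7 or 8 exons, and DRD4 at chr11:637293-640706 on the plus strand with 3 or 4. DRD5 is a gene of 1 exon at chr4:9781680-9784009 on the plus strand, inside the span of SLC2A9 on the other strand. The span of DRD2 also holds MIR4301 on its own strand and meets the antisense gene AP002840.1, and none of these 3 neighbours shares an exon base with a receptor gene.

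The highest and the lowest receptor transcript per kilobase of exon both had many CG pairs before their start, and they are shown for that reason. By CPM alone DRD2, which has no window here, stood highest. A link of CG pairs to transcript level was not tested. The 250 bases before the RefSeq start (GRCh38.p14) are printed on the gene's strand, with each CG pair in capitals: DRD4 at chr11:637019-637268 and DRD5 at chr4:9781384-9781633.

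DRD4: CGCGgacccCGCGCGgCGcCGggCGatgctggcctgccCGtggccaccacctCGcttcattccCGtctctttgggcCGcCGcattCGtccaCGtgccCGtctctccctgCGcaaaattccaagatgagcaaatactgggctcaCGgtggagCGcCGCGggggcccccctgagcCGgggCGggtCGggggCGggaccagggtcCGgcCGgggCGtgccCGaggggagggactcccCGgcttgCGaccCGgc

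DRD5: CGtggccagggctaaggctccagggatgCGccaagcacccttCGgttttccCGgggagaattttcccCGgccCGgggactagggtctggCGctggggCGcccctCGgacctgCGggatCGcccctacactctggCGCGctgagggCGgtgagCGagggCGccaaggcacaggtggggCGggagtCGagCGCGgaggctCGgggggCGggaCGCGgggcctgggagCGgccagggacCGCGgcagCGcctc

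The DRD4 window held 32 CG pairs at 74.4% G and C, and the DRD5 window 28 at 74.8%. CG was searched as those 2 letters, which read the same on both strands and cannot overlap another CG. Of 35116 RefSeq windows of this length, 93.94% held at least 1 CG pair and the median was 11. As many CG pairs as in DRD4 stood in 9.52% of windows, and as many as in DRD5 in 15.9%. DRD1 had 27 pairs (17.7% of windows with as many), whereas the 2 listed starts of DRD3 had 1 and 6. The RefSeq table matched 4 of the 5 receptors, DRD2 being the other.

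DRD2 and DRD4 supplied most of the receptor transcripts, DRD3 fewer, DRD1 few and DRD5 almost none. The values are expected counts, that is, molecules or fractions of molecules assigned to a gene, and levels are given in CPM. Over all cells DRD2 reached 2624 counts, or 3.31 CPM (95% exact Poisson interval 3.18 to 3.44), and DRD4 2436 counts, or 3.07 CPM (2.95 to 3.19). DRD3 had 725 counts (0.913 CPM, 0.848 to 0.982) and DRD1 252 counts (0.317 CPM, 0.279 to 0.359). DRD5 had 2.94 counts in 6 cells, none of which reached a whole count, and its processed pseudogenes DRD5P1 and DRD5P2 had 0 counts. Intervals of this kind cover counting error only.

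Set per kilobase of exon, the level of DRD4 was the highest at 2.08 CPM per kb. DRD2 followed at 0.807, DRD3 at 0.435, DRD1 at 0.0782 and DRD5 at 0.00159 CPM per kb. Exon unions were 1.477 kb for DRD4 and 4.098 kb for DRD2, so the order of those genes turned around with length. How reads were placed along transcripts is not stated, and a kit that reads mainly transcript ends would not call for this division.

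The share of cells with a count, read as an entry of at least 0.5, was 4.88% for DRD4 and 3.81% for DRD2. It was 1.199% for DRD3, 0.520% for DRD1 and 0.00687% (3 cells) for DRD5, the share that a count of 0 would allow. The median cell had 12776 counts, but the cells with a DRD1 count had a median of 23737, and the cells with the other 3 detected receptors 20490 to 22794. After thinning each cell to 5000 counts, which left out 1600 shallower cells, the shares were 1.35% for DRD4, 1.28% for DRD2, 0.382% for DRD3, 0.126% for DRD1 and 0 for DRD5.

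The receptors also differed in how their counts were spread over cells. No cell held more than 2 counts of DRD1, whereas single cells held up to 19 of DRD2. The 84 cells with 4 or more DRD2 counts carried 18.1% of all DRD2 counts, against 1.27% for DRD4 in 6 such cells. DRD4 entries were whole numbers in 98.7% of cases and DRD1 entries in 99.1%, against 87.0% for DRD2 and 35.9% for DRD3. DRD3 entries were thus mostly not whole, how such fractions arose is not stated, and the DRD3 level rests on them.

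The levels were similar in all 8 sublibraries. DRD1 ranged from 0.227 to 0.413 CPM over them, DRD2 from 2.70 to 3.67, DRD3 from 0.783 to 1.09 and DRD4 from 2.75 to 3.53. Tags held 3624668 to 58777177 counts from 317 to 1959 cells. Of 41192 barcode combinations, 2393 occurred in more than 1 sublibrary, which split-pool barcoding allows for different cells.

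DRD1, the main D1-class receptor, was detected in 39 of the 46 tags and never exceeded 0.920 CPM. Its mean over tags was highest in 3DFusi at 0.493 ± 0.268 CPM (SD, n = 10), then 2DProto2Fjo at 0.488 ± 0.0408 (n = 2) and 2DCocu at 0.439 ± 0.287 (n = 12). The lowest means were 0.108 ± 0.0961 in 3DMono (n = 6) and 0.0787 ± 0.0119 in 2DProto3Wu_ (n = 2). Within 3DFusi the tags ran from 0 over a median of 0.468 to 0.840 CPM, and within 2DCocu from 0 over 0.439 to 0.920 CPM, so these arrangements overlapped with every other one. In 2DMono the tags ran from 0 over 0.170 to 0.796 CPM, and in 3DMono from 0 over 0.116 to 0.235 CPM. A count of 3 in a tag corresponds to 0.0510 CPM in the deepest tag and 0.828 CPM in the shallowest, so that a tag at 0 says little where depth was low.

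DRD2, the principal D2-class receptor, was detected in all 46 tags. Means were 6.35 ± 2.01 CPM in 2DProto2Fjo (n = 2), 5.00 ± 1.30 in 3DProto1For (n = 3), 4.55 ± 0.0994 in 2DProto3Wu_ (n = 2) and 4.31 ± 0.690 in 2DProto4Nic (n = 2). They were 3.23 ± 0.964 CPM in 3DProto2Xia (n = 3), 3.18 ± 0.742 in 2DCocu (n = 12), 3.13 ± 1.80 in 3DFusi (n = 10), 2.53 ± 0.798 in 3DMono (n = 6) and 2.30 ± 0.824 in 2DMono (n = 6). The 5 arrangements without a treatment code thus held the 5 highest means, 3DProto2Xia by less than its SD. With treatments kept apart, 3DProto2Xia ranked 8 among the 17 groups, below 3DMono AcMor at 3.44 CPM among others. Tags of 2DCocu ran from 1.98 over a median of 3.23 to 4.57 CPM, tags of 3DFusi from 1.51 over 2.40 to 6.79 CPM, tags of 3DMono from 1.56 over 2.39 to 3.71 CPM and tags of 2DMono from 1.59 over 2.03 to 3.48 CPM.

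The DRD3 mean was highest in 3DFusi at 1.33 ± 0.724 CPM (n = 10) and 2DMono at 1.10 ± 0.507 (n = 6), and lowest in 2DProto3Wu_ at 0.491 ± 0.241 (n = 2) and 2DProto4Nic at 0.437 ± 0.175 (n = 2). The 10 tags of 3DFusi ran from 0.617 over a median of 1.08 to 3.02 CPM. They overlapped with the tags of every other arrangement but 2DProto4Nic, whose 2 tags reached 0.561 CPM at most.

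The DRD4 means ran from 4.54 ± 1.97 CPM in 3DProto1For (n = 3) to 1.51 ± 0.727 in 3DProto2Xia (n = 3), with the other 7 arrangements between 2.42 and 3.36 CPM. Tags of 2DCocu ran from 1.39 over a median of 2.52 to 5.47 CPM, and tags of 3DFusi from 1.46 over 3.31 to 3.99 CPM.

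Each receptor's 9 arrangement means give 8 neighbouring pairs in order of level. The gap was within the larger SD of the pair in 8 of 8 pairs for DRD1 and for DRD3. For DRD2 it was within it in 7 of 8, the exception being 2DProto4Nic above 3DProto2Xia (gap 1.08 CPM). For DRD4 it was within it in 7 of 8, the exception being 2DProto3Wu_ above 3DProto2Xia (gap 0.907 CPM). DRD5 had an entry of at least 0.5 in 2 tags only.

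**Figure D1:**
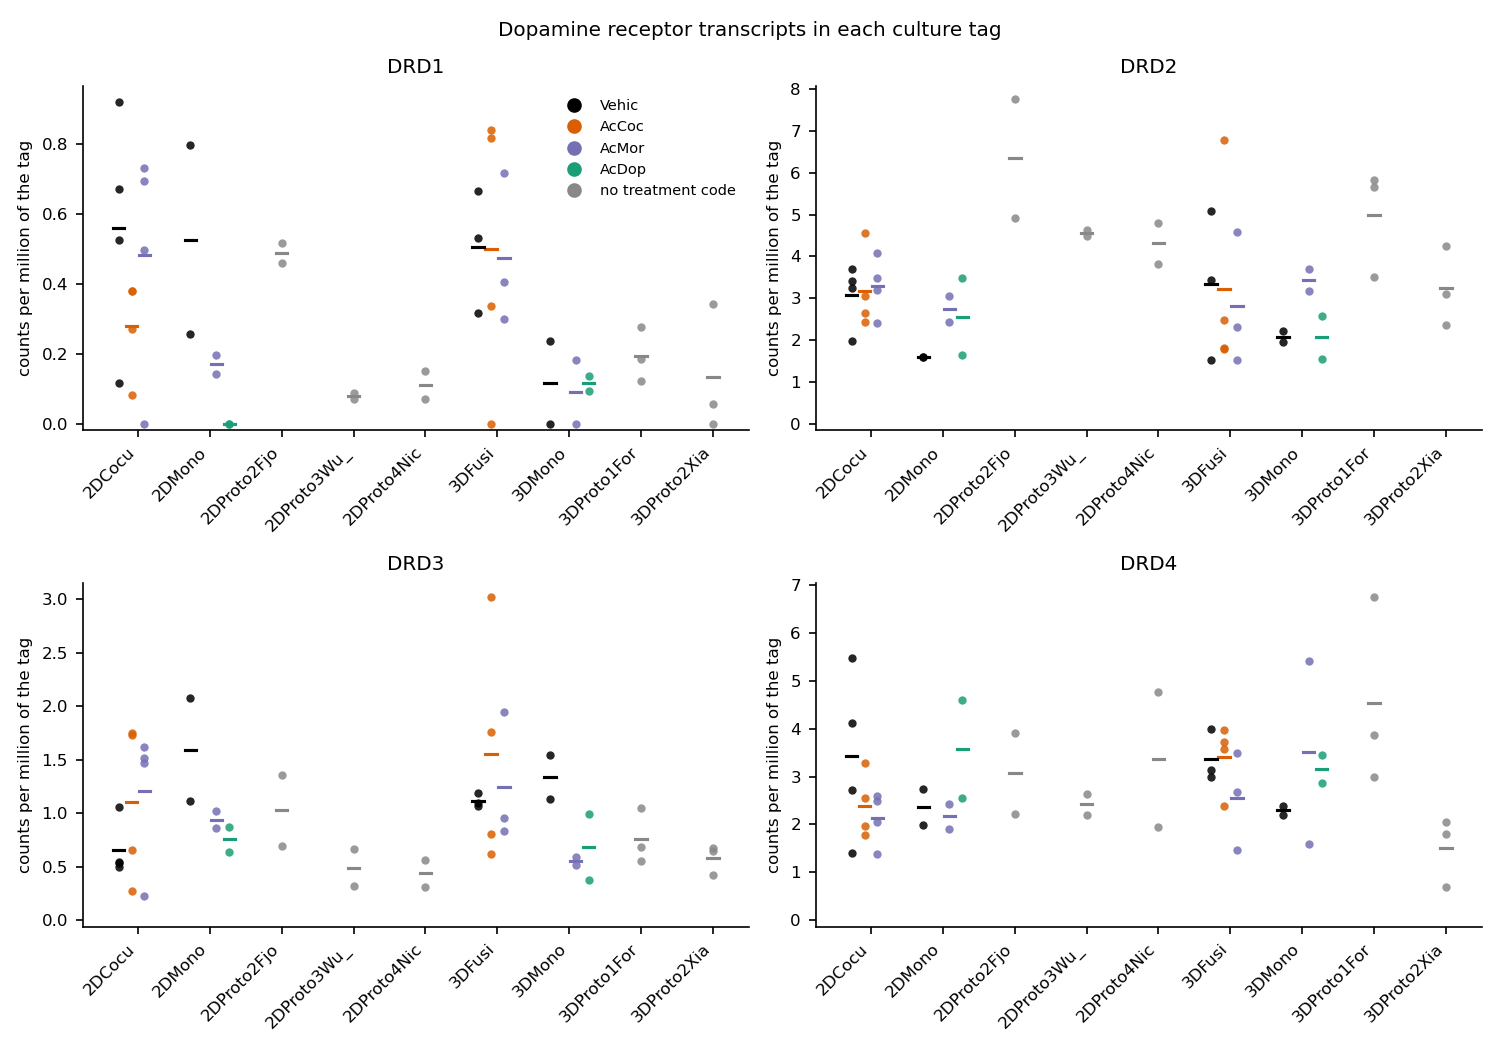
Level of 4 receptors in each culture tag, in CPM of the tag (y axes differ in range), by arrangement. Each dot is 1 tag, coloured by treatment code, and bars are group means. The 2DProto2Fjo tags of DRD2 stand at 4.93 and 7.76 CPM, and the DRD1 tags reach from 0 to 0.920 CPM.

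Whether exposure changed receptor transcripts was asked in 8 comparisons of a treatment code with the Vehic tags of the same arrangement. No receptor passed the test in any of them. In the 24 tests that the filter on low counts allowed (edgeR quasi-likelihood test, Benjamini-Hochberg adjustment over all genes), 0 were called at an adjusted p under 0.05 and 0 had an unadjusted p under 0.05. DESeq2 gave 15 adjusted p-values for the same contrasts, of which 0 were called, and 0 of its unadjusted p-values were under 0.05. Of all genes, edgeR called 6.09% in 2DCocu AcCoc and 0.975% in 2DCocu AcMor. In the other 6 comparisons it called 0%, with 177 to 1925 genes at an unadjusted p under 0.05 and 0 to 86 genes called higher and 0 to 92 called lower by DESeq2. A share of 0 among the receptors is therefore near the background in every comparison.

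DRD2 in 2DMono was 1.60 and 1.59 CPM in the Vehic tags, 1.63 and 3.48 CPM in the AcDop tags, and 3.04 and 2.43 CPM in the AcMor tags. Both Vehic tags were lower than every treated tag, but the log2 difference was 0.80 for AcDop (SE 0.43, edgeR adjusted p = 1.0) and 0.72 for AcMor (SE 0.42, edgeR adjusted p = 0.782). These contrasts share the 2 Vehic tags. In 3DMono, DRD2 was 2.21 and 1.95 CPM in Vehic, 1.56 and 2.56 CPM in AcDop, and 3.17 and 3.71 CPM in AcMor. The AcMor tags lay above both Vehic tags, and this contrast had the lowest p of the 24 tests (0.79, SE 0.38, edgeR adjusted p = 0.596). The neuron classes made up 24.0 to 45.8% of cells in the 2DMono Vehic tags, 30.9 to 57.7% in AcDop and 52.5 to 56.4% in AcMor. In 3DMono they made up 28.0 to 38.1%, 37.8 to 41.2% and 43.1 to 46.1% in the same order, and the part of these shares in the DRD2 values was not tested.

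DRD3 in 3DMono was 1.13 and 1.54 CPM in Vehic, 0.378 and 0.994 CPM in AcDop, and 0.593 and 0.516 CPM in AcMor. The treated tags were all lower than the Vehic tags. The log2 difference was -0.81 for AcDop (SE 0.55, edgeR adjusted p = 1.0) and -1.09 for AcMor (SE 0.53, edgeR adjusted p = 0.601). In 2DCocu, DRD3 differences were positive, 0.73 for AcCoc (SE 0.56, edgeR adjusted p = 0.491) and 0.65 for AcMor (SE 0.58, edgeR adjusted p = 0.659), with overlapping tags.

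The 2DCocu groups differed in composition, with 5.05 to 10.1% of cells in the neuron classes in the Vehic tags (38 to 117 cells), 24.2 to 35.1% in the AcCoc tags and 25.5 to 29.2% in the AcMor tags. With clusters drawn at resolution 0.4 these shares were 8.76 to 15.2%, 30.6 to 41.9% and 31.3 to 35.1%. The part of these shares in the whole-tag values of 2DCocu was not tested.

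DRD4 in 2DCocu was 5.47, 2.71, 4.12 and 1.40 CPM in the Vehic tags, 2.55, 1.96, 3.27 and 1.78 CPM in the AcCoc tags, and 1.39, 2.49, 2.59 and 2.04 CPM in the AcMor tags. The Vehic tags spanned the whole range of the treated ones apart from the lowest AcMor tag. The log2 differences were -0.52 (SE 0.32, edgeR adjusted p = 0.371) and -0.64 (SE 0.33, edgeR adjusted p = 0.390). In 3DFusi, 4 tags of AcCoc had 2.38 to 3.98 CPM of DRD4 and the 3 Vehic tags 3.00 to 3.99 CPM, a log2 difference of 0.02 (SE 0.31, edgeR adjusted p = 1.0).

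DRD1 passed the filter in 3DFusi only. It was 0.317, 0.665 and 0.531 CPM in the Vehic tags, 0.338, 0, 0.817 and 0.840 CPM in the AcCoc tags and 0.405, 0.300 and 0.715 CPM in the AcMor tags. The groups overlapped, with log2 differences of 0.19 (SE 0.61) and 0.09 (SE 0.63), both with an edgeR adjusted p of 1.0. In 2DCocu the 4 Vehic tags had 0.116 to 0.920 CPM, the AcCoc tags 0.0822 to 0.381 CPM and the AcMor tags 0 to 0.732 CPM. In 2DMono the groups did not overlap, with DRD1 at 0.255 and 0.796 CPM in Vehic (15 and 4 counts), 0.197 and 0.143 CPM in AcMor (3 counts and 1 count) and 0 in both AcDop tags, where 3 counts would be 0.639 and 0.294 CPM. DRD1 did not pass the filter there, and with no filter it was not called (edgeR adjusted p = 0.981 for AcDop and 0.882 for AcMor). DRD3 in 2DMono, also below the filter, was 1.11 and 2.08 CPM in Vehic and 0.640 to 1.02 CPM in the 4 treated tags.

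Over all 24 tests the 95% intervals reached from -2.28 to 2.04 on the log2 scale. The widest were those of DRD1 in 3DFusi, from -1.29 to 1.48 for AcMor and from -1.15 to 1.53 for AcCoc. No term for the tag number entered these fits. For DRD2 in 2DCocu the intervals were narrower, from -0.49 to 0.55 for AcCoc and from -0.43 to 0.61 for AcMor.

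The genes around the receptors were read through a list of 43 genes of dopamine signalling (G proteins, cyclases, phosphodiesterases, DARPP-32 and its relatives, RGS proteins, kinases and arrestins, GIRK channels and receptor partners). In 2DCocu AcCoc, 3 of 40 measured members rose and 1 fell (median log2 difference 0.10, against a median of -0.0017 over all genes). The share called over all genes there was 6.09%, as given above. In the other 7 treatment comparisons 0 of 39 to 43 measured members were called.

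Format and arrangement were compared in 4 contrasts on the treatments that both sides share. Here many genes passed the test but no tested receptor did. DRD1 and DRD5 did not pass the filter on low counts in any of the 4. Of all genes, edgeR called 38.8% in 3DMono against 2DMono, 49.4% in 3DFusi against 2DCocu, 30.3% in 2DCocu against 2DMono and 1.56% in 3DFusi against 3DMono. Of 12 tests of DRD2, DRD3 and DRD4, 0 were called, and DESeq2 called 0 of 12 as well. The lowest edgeR p was that of DRD2 in 2DCocu against 2DMono, and it was the single one of the 12 under 0.05. DRD2 averaged 3.19 ± 0.684 CPM in the 8 tags of 2DCocu used and 2.17 ± 0.706 CPM in the 4 tags of 2DMono, a log2 difference of 0.46 (SE 0.22, edgeR adjusted p = 0.121). Without TMM factors the median of all genes moved by 0.12 in this contrast and by 0.19 in 3DMono against 2DMono.

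In 3DFusi against 2DCocu, DRD2 differed by -0.18 (95% interval -0.67 to 0.31), DRD3 by 0.34 (-0.36 to 1.04) and DRD4 by 0.16 (-0.24 to 0.56) on the log2 scale. In 3DMono against 2DMono, DRD2 differed by -0.07 (-0.57 to 0.43), DRD3 by -0.48 (-1.07 to 0.11) and DRD4 by -0.04 (-0.72 to 0.65). In 3DFusi against 3DMono the differences were 0.03 for DRD2 (-0.75 to 0.81), 0.35 for DRD3 (-0.43 to 1.12) and -0.11 for DRD4 (-0.95 to 0.74). A log2 difference of 1.0 in either direction lay outside these intervals for DRD2 and DRD4. With no filter, the largest DRD1 difference was 1.63 (0.51 to 2.75) in 3DFusi against 3DMono, and it was not called (edgeR adjusted p = 0.162). Of the 43 signalling genes 6 rose and 9 fell in 3DMono against 2DMono (36.6% of 41 measured), and 9 rose and 11 fell in 3DFusi against 2DCocu (47.6% of 42), beside 38.8% and 49.4% of all genes. In 2DCocu against 2DMono 7 rose and 9 fell (38.1% of 42, beside 30.3% of all genes), and in 3DFusi against 3DMono 1 rose and 1 fell (4.65% of 43, beside 1.56%).

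Counts summed over whole tags also hold the share of neurons, so the tests were repeated on cells of the neuron classes alone. Of 17 tests in 12 comparisons (11 of DRD2, 6 of DRD4), 0 were called, and 0 had an edgeR p under 0.05. The lowest p was that of DRD2 in 3DFusi against 2DCocu, with a log2 difference of -0.57 (SE 0.32, edgeR adjusted p = 0.156), where 45.3% of all genes were called. In the neuron classes edgeR called 30.8% of all genes in 3DMono against 2DMono, 9.42% in 2DCocu against 2DMono, 0.141% in 2DCocu AcCoc, 0.0704% in 2DCocu AcMor and 0% in the other 7 comparisons. In neuron classes drawn at resolution 0.4 it called far more in the 2DCocu treatments, 1550 of 14918 genes for AcCoc and 497 for AcMor, and DRD2, the receptor that passed the filter there, was not called. DRD1 and DRD3 had too few counts in neurons to pass the filter. With no filter, DRD3 differed by 1.497 (edgeR adjusted p = 0.0333) and DRD4 by 0.94 (edgeR adjusted p = 0.0231) in 3DFusi against 2DCocu, in a fit that called 7960 of 37909 genes.

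The arrangements without a treatment code gave the single receptor call among 14 tests of 4 comparisons. DRD1 was higher in 2DProto2Fjo, at 0.517 and 0.459 CPM, than in 2DProto3Wu_, at 0.0871 and 0.0703 CPM. The tags did not overlap, and the log2 difference was 2.45 (SE 0.63, 95% interval 1.04 to 3.87, edgeR adjusted p = 0.0242), in a contrast where 17.0% of all genes were called. The comparison rests on 29.1 counts in 2DProto2Fjo and 3.5 counts in 2DProto3Wu_. Only the 2DProto2Fjo tags met the filter on low counts in this fit, which also held 2DProto4Nic. DRD1 thus entered it through the group where it was high. The call was lost without either tag of 2DProto2Fjo and without either tag of 2DProto3Wu_ (log2 difference 2.05 to 2.78, edgeR adjusted p = 0.0784 to 0.268). DESeq2 gave a log2 difference of 2.48 with an unadjusted DESeq2 p of 0.0595 and no adjusted p, so it did not call this difference.

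Against 2DProto4Nic, at 0.0707 and 0.151 CPM, DRD1 of 2DProto2Fjo was higher by 1.64 (SE 0.56, edgeR adjusted p = 0.0576, 24.6% of all genes called). Without TMM factors this difference was 1.88 with an edgeR adjusted p of 0.0290, in a contrast whose all-gene median then moved by 0.25. In 2DProto3Wu_ against 2DProto4Nic, where 34.2% of genes were called, no receptor was. DRD4 there was 2.64 and 2.20 CPM against 1.95 and 4.77 CPM, a log2 difference of -0.86 (SE 0.42, edgeR adjusted p = 0.139). Without 2DProto4Nic replicate 1 this was -1.30 with an edgeR adjusted p of 0.0182.

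Most DRD1 counts of 2DProto2Fjo came from 1 group of cells. Cluster 12, whose leading genes include TTR, HTR2C and CLIC6, markers of choroid plexus, made up 21.6% of its cells (528 of 2447) and held 69.0% of its DRD1 counts. Outside the cluster the DRD1 level was 0.198 CPM, against 0.489 CPM with it, 0.0766 CPM in 2DProto3Wu_ and 0.132 CPM in 2DProto4Nic. The 8 choroid plexus markers summed to 1062 to 1311 CPM in the 2DProto2Fjo tags and to 140 to 245 CPM in the other 2-D tags compared here, with none of the 8 at 0. All 3.5 counts of 2DProto3Wu_ lay in cluster 8, a GABAergic neuron-like cluster led by LHX8 and LHX6. Fewer cells of a type and less RNA per cell cannot be told apart in sums over a tag.

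In 2DProto2Fjo against 2DProto3Wu_, 7 of the 43 signalling genes rose and 4 fell (25.6%, beside 17.0% of all genes). Their median log2 difference was 0.07, against 0.0012 over all genes. KCNJ5, a GIRK channel subunit, rose by 3.59 (SE 0.37), and PPP1R1B, which encodes DARPP-32, the phosphatase regulator downstream of DRD1, rose by 2.89 (SE 0.38). GNAS fell by 1.37 (SE 0.17) and KCNJ3 fell by 1.199 (SE 0.24), and these 4 had edgeR adjusted p-values of 0.000123, 0.000583, 0.000452 and 0.00650.

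Of the 3-D pair, 3DProto1For had 6.75, 3.00 and 3.86 CPM of DRD4 and 3DProto2Xia 1.79, 0.687 and 2.06 CPM. The tags did not overlap, and the log2 difference was 1.53 (SE 0.50, edgeR adjusted p = 0.634). No gene at all was called in this contrast by edgeR (0% of 20599, with 1602 at an unadjusted p under 0.05), and DESeq2 called 11 higher and 4 lower. DRD2 was 5.83, 3.50 and 5.66 CPM against 2.35, 3.09 and 4.26 CPM, with overlap (0.58, SE 0.34, edgeR adjusted p = 0.651).

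The high DRD2 means of the arrangements without a treatment code led to 5 further comparisons with the Vehic tags of 2DMono or 3DMono, which were chosen after the values had been seen. The 2-D ones all share the same 2 Vehic tags, of 58777177 and 5027412 counts, and 6 of the 7 receptor calls rest on them. Of the 17 groups, 2DMono Vehic had the lowest DRD2 mean (1.59 CPM) and the highest DRD3 mean (1.59 CPM). The other 2DMono groups had DRD2 means of 2.56 CPM (AcDop) and 2.74 CPM (AcMor) and DRD3 means of 0.755 and 0.939 CPM. DRD2 was 7.76 and 4.93 CPM in 2DProto2Fjo, 4.48 and 4.62 CPM in 2DProto3Wu_, 3.82 and 4.80 CPM in 2DProto4Nic, and 1.60 and 1.59 CPM in 2DMono Vehic. Every tag without a treatment code lay above both Vehic tags. DRD2 was called higher in all 3, by 1.73 (SE 0.31, edgeR adjusted p = 0.00195), 1.21 (SE 0.32, edgeR adjusted p = 0.0120) and 1.45 (SE 0.32, edgeR adjusted p = 0.00727). The background of genes called was 22.7%, 31.9% and 21.0%.

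The call of 2DProto2Fjo held without each tag in turn. That of 2DProto3Wu_ was lost without 2DMono Vehic replicate 1 (1.39, edgeR adjusted p = 0.0889) and without 2DProto3Wu_ replicate 2 (1.24, edgeR adjusted p = 0.0560). That of 2DProto4Nic was lost without 2DMono Vehic replicate 1 (1.64, edgeR adjusted p = 0.0693) and without 2DProto4Nic replicate 2 (1.26, edgeR adjusted p = 0.0585).

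The cells that carried DRD2 differed between these arrangements. In 2DProto3Wu_, the LHX8 and LHX6 cluster 8 held 81.2% of the DRD2 counts at 5.34 CPM. In 2DProto2Fjo, an excitatory neuron-like cluster (number 15) and the choroid plexus marker cluster 12 each held 34.2%, at 5.08 and 9.42 CPM. In 2DProto4Nic, cluster 18, led by DCT and PDE10A, held 34.9% at 6.37 CPM, and cluster 20, a neuron-like cluster led by RELN and LHX1, held 22.0% at 24.1 CPM. Without cluster 12 the DRD2 levels were 5.4995 CPM in 2DProto2Fjo, 4.58 in 2DProto3Wu_, 4.64 in 2DProto4Nic and 1.61 in 2DMono Vehic. The neuron classes made up 51.6 to 52.9% of cells in the 2DProto2Fjo tags, 66.5 to 67.1% in 2DProto3Wu_, 26.6 to 35.6% in 2DProto4Nic and 24.0 to 45.8% in 2DMono Vehic, and the part of these shares in the DRD2 result was not tested. The shares depend on how finely clusters are drawn: at resolution 0.4 they were 34.3 to 36.1% in 2DProto2Fjo and 10.1 to 15.1% in 2DProto4Nic, and at resolution 1.2 the latter was 15.9 to 24.6%.

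DRD3 was lower in part of this added set. It was 0.320 and 0.661 CPM in 2DProto3Wu_, 0.561 and 0.313 CPM in 2DProto4Nic, and 1.11 and 2.08 CPM in 2DMono Vehic. The tags did not overlap, and DRD3 fell by 1.61 in 2DProto3Wu_ (SE 0.50, edgeR adjusted p = 0.0284) and fell by 1.71 in 2DProto4Nic (SE 0.52, edgeR adjusted p = 0.0357). Neither was called by DESeq2 (adjusted p = 0.0589 and 0.0738), and the first was also lost without TMM factors. Both were lost without either tag of 2DMono Vehic, the first also without either tag of 2DProto3Wu_ (-1.25 and -2.16) and the second without 2DProto4Nic replicate 2 (-1.199). DRD1 fell by 2.18 in 2DProto3Wu_ (SE 0.76, edgeR adjusted p = 0.0468) from 0.255 and 0.796 CPM in 2DMono Vehic. Neither 2DProto3Wu_ tag met the filter on low counts in this fit, which DRD1 passed through 2DProto2Fjo and 2DMono Vehic replicate 2. This call was lost under DESeq2, without TMM factors and without cells called doublets. It was also lost in every fit that left out a tag except the one without 2DMono Vehic replicate 1.

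Among the 3-D arrangements no receptor was called against 3DMono Vehic (1.87% of all genes called for 3DProto1For, 0.572% for 3DProto2Xia). The largest difference was that of DRD2 in 3DProto1For at 1.16 (SE 0.37, edgeR adjusted p = 0.124). Of the signalling list, 7 genes rose and 6 fell in 2DProto2Fjo, 11 rose and 6 fell in 2DProto3Wu_ and 4 rose and 5 fell in 2DProto4Nic, of 43 measured each. These are 30.2%, 39.5% and 20.9% of the list, beside 22.7%, 31.9% and 21.0% of all genes called in the same contrasts, and the last share is at the background. ARPP21, a cyclic AMP-regulated phosphoprotein, fell by 3.33, 4.38 and 3.69 in the same order, and KCNJ6, another GIRK channel subunit, fell by 2.26, 2.09 and 1.89. PDE10A, a phosphodiesterase best known from the striatum, rose by 3.94 (SE 0.14, edgeR adjusted p = 6.78e-08) in 2DProto4Nic. PPP1R1B fell by 2.44 (SE 0.43, edgeR adjusted p = 0.00196) in the same contrast.

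**Figure D2:**
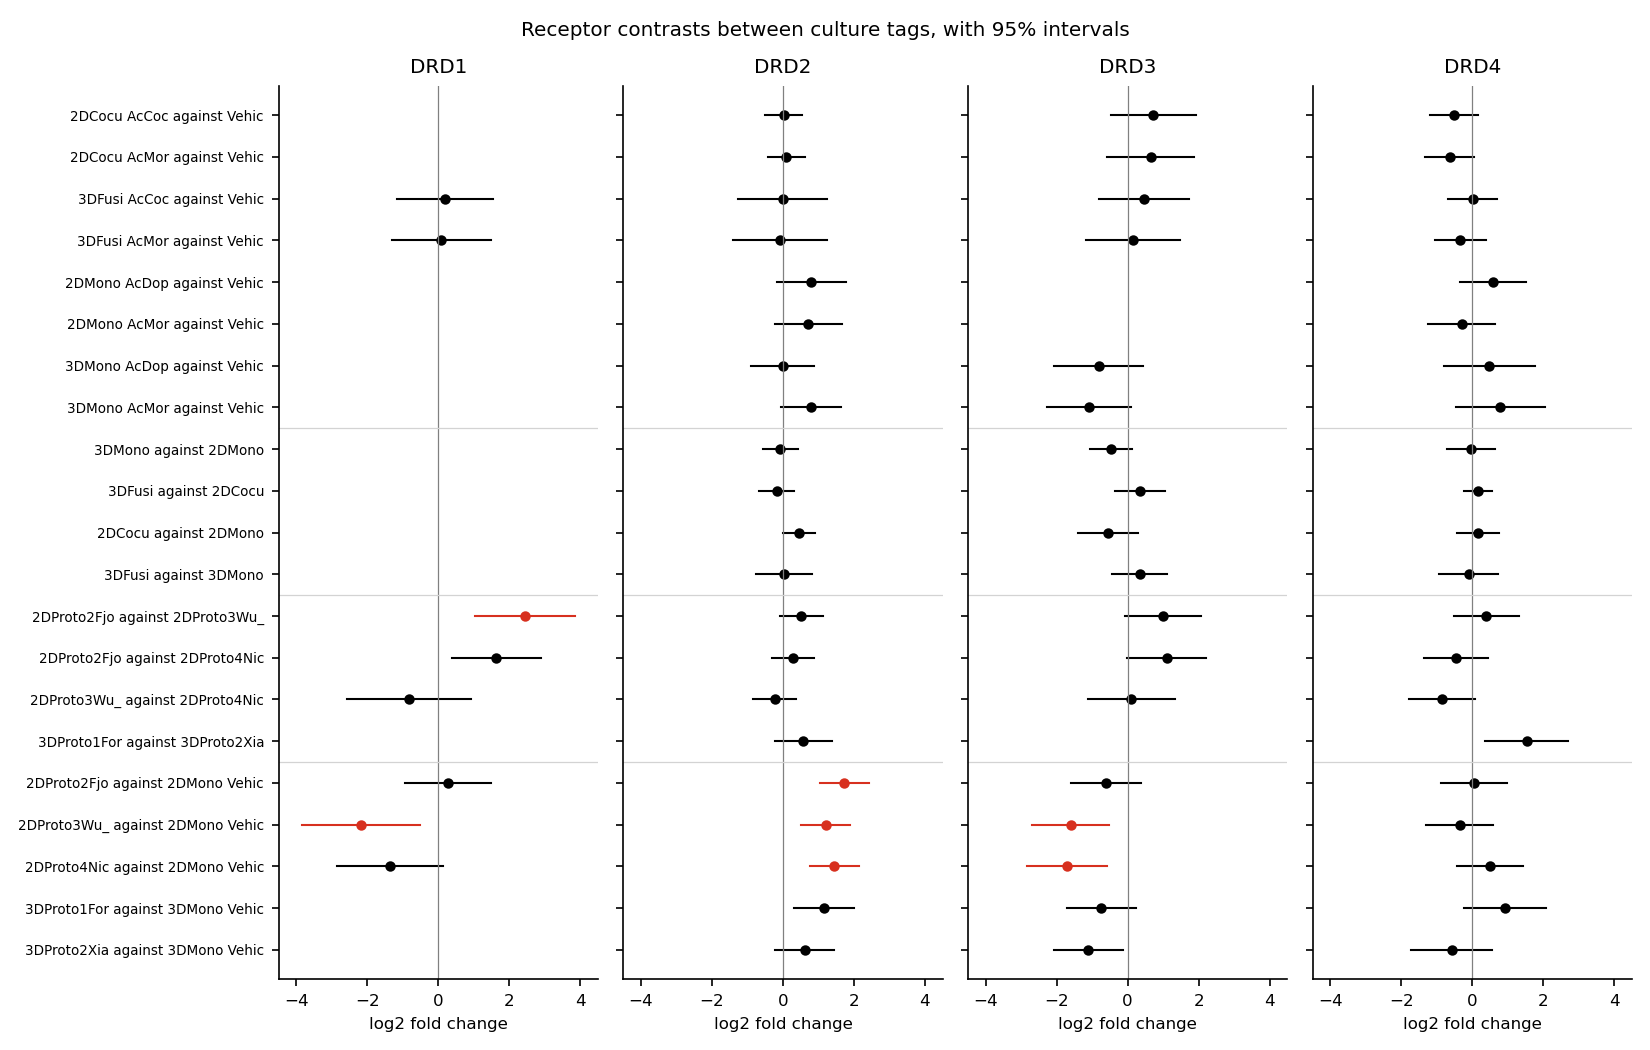
Log2 fold change of 4 receptors (x axis) in each comparison of culture tags (y axis), with 95% intervals from edgeR. Red marks an adjusted p under 0.05, and an empty row marks a gene that did not pass the filter on low counts. The comparisons with treatment codes, at the top, hold no red point, and all 7 red points involve an arrangement without a treatment code. Of these, 6 lie in the comparisons with 2DMono Vehic, which were chosen after the values had been seen and share the same 2 Vehic tags.

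Receptor levels were next described over 39 clusters of cells, drawn without the receptors and the listed genes among the variable genes. Clusters come from the same cells, so no test is attached to them. The 14265 cells of the neuron classes were set beside the 29428 other cells. DRD2 stood at 4.20 CPM in neurons (95% Poisson interval 3.93 to 4.48) and 2.96 CPM elsewhere (2.82 to 3.11). DRD1 stood at 0.156 CPM in neurons (0.108 to 0.217) and 0.379 CPM elsewhere (0.331 to 0.433). DRD3 was 0.760 against 0.972 CPM and DRD4 2.92 against 3.13 CPM. Over tags the spread was wide, with DRD2 at 3.78 ± 2.39 CPM (SD, n = 44) in neurons and 3.15 ± 1.72 CPM (n = 46) in the other cells. In the same order DRD3 was 0.690 ± 0.732 and 1.07 ± 0.865 CPM. DRD4 was 2.94 ± 1.67 and 2.92 ± 1.27 CPM, so its pooled order did not hold over tags.

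Of the DRD1 counts 86.3% lay outside the neuron classes. Over tags the DRD1 level was 0.153 ± 0.252 CPM in neurons (SD, n = 44, with 26 tags at 0) and 0.365 ± 0.326 CPM in the other cells (n = 46), so the spreads overlapped. The 44 tags are among the 46, and the difference within a tag was not tested for any receptor. Its highest levels were in cluster 21 (mesenchymal-like, led by SLC6A13, C7 and PTGDS) at 1.39 CPM (0.913 to 2.02), cluster 6 (ciliated cell-like, with SHH among its leading genes) at 1.28 CPM (0.921 to 1.74), cluster 4 (unnamed, led by ALDH1L1) at 1.15 CPM (0.779 to 1.63) and cluster 12 at 1.06 CPM (0.735 to 1.47). The top 5 clusters held 54.5% of DRD1 counts in 14.7% of cells, and 12 clusters of 10937 cells held no DRD1 count. Cluster 4 belonged almost wholly to 2DCocu, whereas cluster 6 belonged mainly to 3-D arrangements, with 2.06 CPM (1.43 to 2.88) in 3DFusi and 0.286 CPM (0.0347 to 1.03) in 3DProto2Xia.

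DRD2 had its highest levels in cluster 20 (neuron-like, RELN and LHX1) at 8.16 CPM (6.83 to 9.68), cluster 5 (unnamed, led by RIT2, with GLRA3 and NKX2-2) at 7.76 CPM (6.82 to 8.80), cluster 23 (unnamed, led by HAND2-AS1) at 7.04 CPM (5.72 to 8.57) and cluster 18 at 7.03 CPM (5.95 to 8.25). The astrocyte-like cluster 33 stood lowest at 0.403 CPM (0.0488 to 1.46), from 2 counts, which is below the 0.605 CPM that 3 counts would give. The level of a cluster was not the same in all arrangements: cluster 20 had 24.1 CPM (18.4 to 31.0) of DRD2 in 2DProto4Nic and 2.40 CPM (1.03 to 4.72) in 3DFusi. Cluster 5 had 5.59 CPM (4.20 to 7.29) in 3DFusi, 8.92 CPM (6.70 to 11.6) in 3DProto1For and 8.80 CPM (7.10 to 10.8) in 3DProto2Xia.

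DRD3 peaked in cluster 14 (unnamed, led by LINC01409 and LINC00326) at 3.03 CPM (2.23 to 4.04), followed by cluster 20 at 2.67 CPM (1.93 to 3.60). In cluster 14 the level was 14.97 CPM (9.96 to 21.6) in 2DCocu and 1.56 CPM (0.758 to 2.86) in 3DFusi. Cluster 7, a progenitor-like cluster with HOPX, had 2.33 CPM (1.76 to 3.02). The lowest level was 0.231 CPM (0.0477 to 0.676) in the mesenchymal-like cluster 28.

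DRD4 was the most even of the 4. Its levels ran from 1.13 CPM (0.308 to 2.89) in the intermediate progenitor-like cluster 30 to 5.99 CPM (4.83 to 7.35) in cluster 14, and the quartiles over clusters were 2.23 and 3.55 CPM. The share of cells with a DRD4 count was 4.11% in neurons (median 11610 counts per cell), 6.83% in the mesenchymal-like class (median 16633) and 3.06% in the muscle-like class (median 14838). The neuronal share was thus not above that of the mesenchymal-like class, and no neuronal expression is read from it. The corresponding DRD2 shares were 3.84%, 2.75% and 1.67%, with CPM of 4.20, 1.76 (1.52 to 2.04) and 0.764 (0.294 to 1.62). Over all cells outside the neuron classes the DRD2 share was 3.80%, close to the neuronal one, and in the unnamed clusters together it was 5.52% at 4.41 CPM. Without thinning, the DRD2 share therefore did not set neurons apart from the other cells. Depth differed, with a median of 11610 counts per cell in neurons and 13351 in the other cells. After the thinning described above, the DRD2 share was 1.43% in neurons and 1.21% in the other cells. It was 1.82% in the unnamed clusters, so neurons stood above the other cells together but not above these clusters. These differences were not tested. The unthinned DRD1 shares were 0.224% in neurons, 0.907% in the mesenchymal-like class and 0.279% in the muscle-like class.

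**Figure D3:**
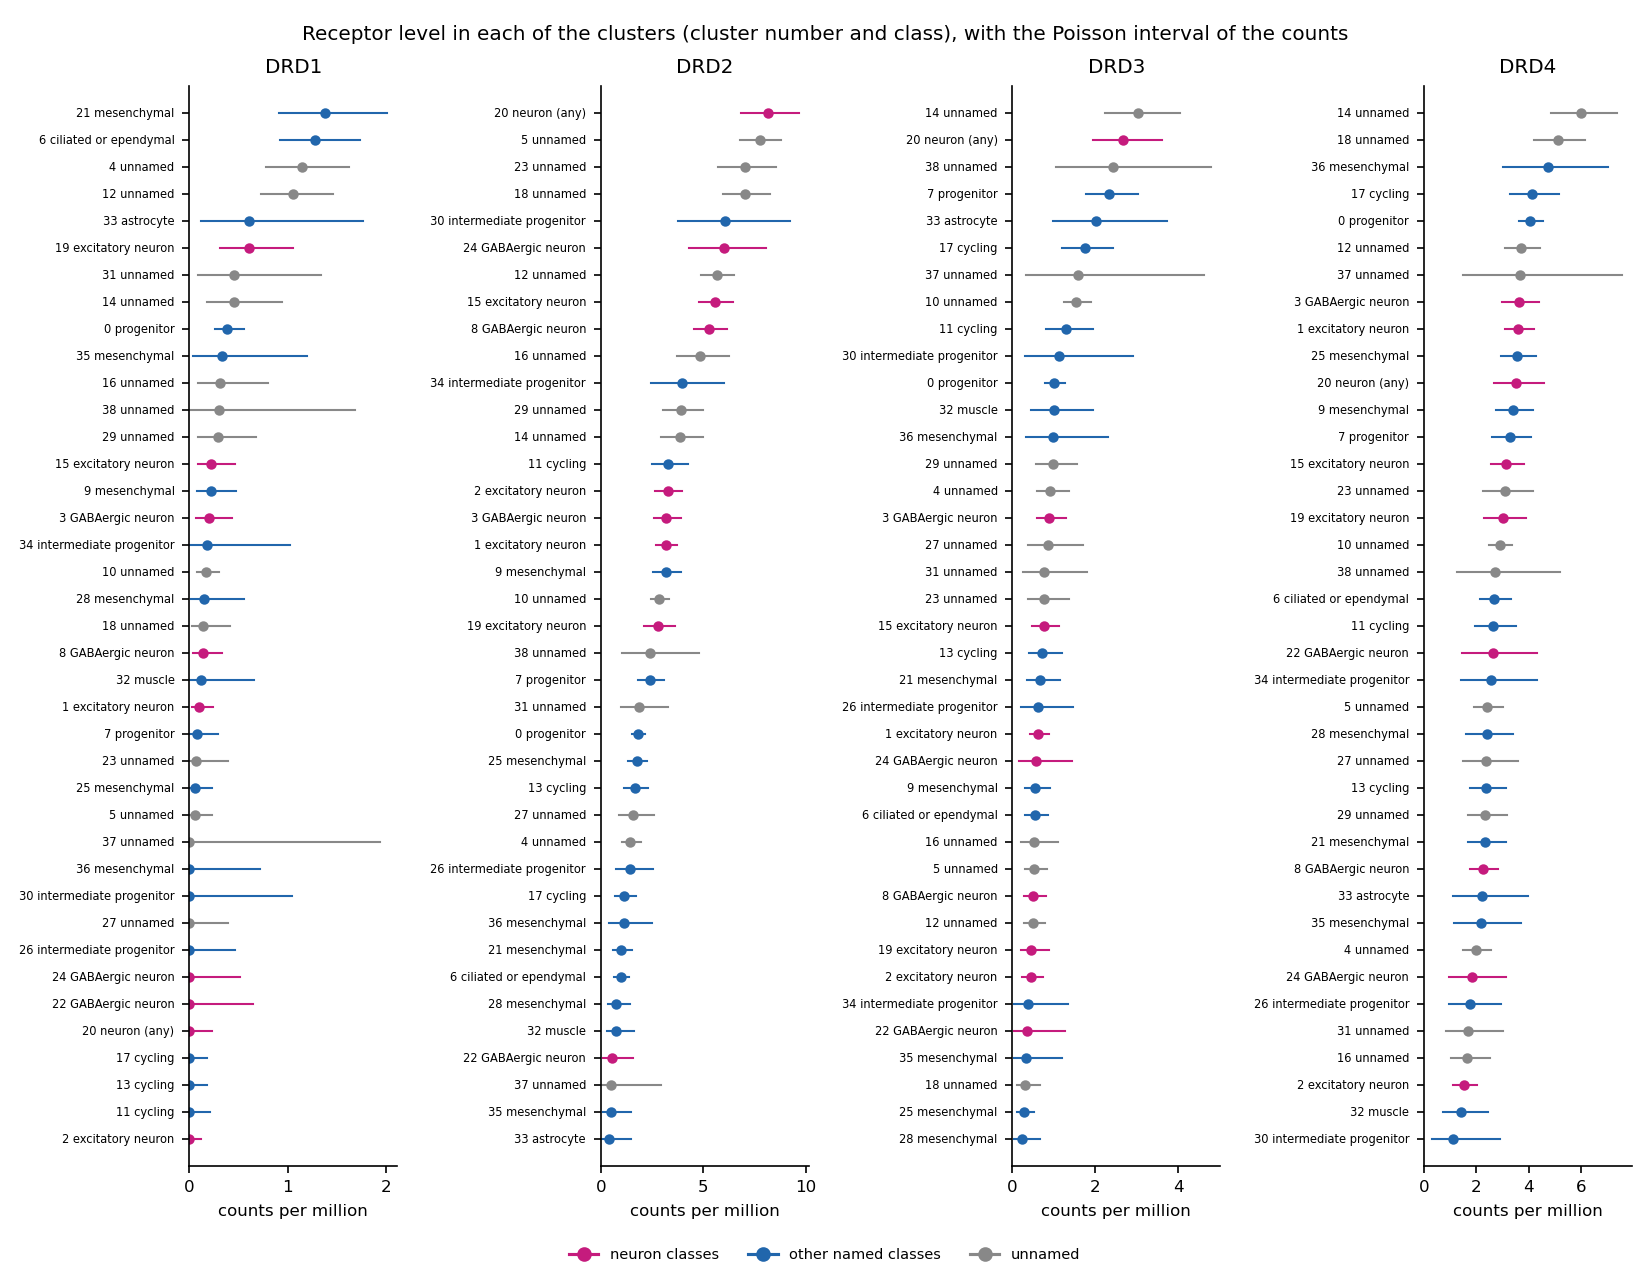
Level of 4 receptors in each of 39 clusters (y axis, sorted by level, with cluster number and class), in CPM of the cluster (x axis), with 95% exact Poisson intervals. DRD1 is at 0 in 12 clusters and highest in cluster 21 at 1.39 CPM, and DRD2 is highest in cluster 20 at 8.16 CPM.

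Cells with a receptor count were also read for the genes that accompany these receptors in the striatum. In the 227 cells with DRD1 the PPP1R1B level was 2.53 CPM (1.63 to 3.75) against 1.89 CPM in other cells, and their level of TAC1, the substance P gene of direct pathway neurons, was 0.725 CPM (0.291 to 1.49) against 1.10 CPM. The 1665 cells with DRD2 had 0.382 CPM of ADORA2A (0.238 to 0.580) against 0.630 CPM and 1.63 CPM of PENK (1.31 to 1.99) against 2.39 CPM.

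Genes of dopamine supply were read in the same cells. DDC, the last enzyme of dopamine synthesis, stood at 4.74 CPM (3.47 to 6.33) in DRD1 cells and 2.01 CPM in other cells, and at 2.75 CPM (2.33 to 3.22) in DRD2 cells against 1.99 CPM. TH, the rate-limiting enzyme, stood at 1.202 CPM (0.933 to 1.52) in DRD2 cells against 0.548 CPM, and at 0.621 CPM (0.228 to 1.35) in DRD1 cells against 0.594 CPM. In DRD3 cells DDC stood at 1.33 CPM (0.867 to 1.96) against 2.06 CPM, and TH at 0.259 CPM (0.0842 to 0.605) against 0.603 CPM, which lies within that interval. In DRD4 cells DDC stood at 1.56 CPM (1.30 to 1.86) against 2.10 CPM and TH at 0.299 CPM (0.192 to 0.445) against 0.628 CPM.

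The dopamine transporter gene SLC6A3 stood at 0.312 CPM (0.0645 to 0.909) in DRD1 cells against 0.580 CPM, and at 0.645 to 0.778 CPM in cells of the other 3 receptors against 0.565 to 0.572 CPM. SLC18A2, the vesicular monoamine transporter gene, stood at 4.20 CPM (3.01 to 5.70) in DRD1 cells against 4.95 CPM and at 6.27 CPM (5.63 to 6.95) in DRD2 cells against 4.84 CPM. By arrangement, TH means ran from 0.0862 ± 0.0907 CPM in 2DCocu (n = 12) to 2.23 ± 0.870 CPM in 2DProto3Wu_ (n = 2). The sum of 8 dopaminergic neuron markers ran otherwise. It was 17.0 to 18.9 CPM in 2DProto3Wu_, which held the lowest of the 46 tags, and 187 to 299 CPM in 2DMono Vehic, with none of the 8 at 0 in either. Over all cells this sum was mostly LMX1A, at 69.1 CPM, whereas TH stood at 0.595 CPM.

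Receptors were seldom counted in the same cell. DRD2 and DRD4 shared 157 cells, which were 9.43% of DRD2 cells and 7.37% of DRD4 cells, against 81.2 expected from the product of their shares. DRD1 and DRD4 shared 29 cells (12.8% of DRD1 cells and 1.36% of DRD4 cells) against 11.1, and DRD3 and DRD4 64 cells (12.2% and 3.00%) against 25.6. DRD2 and DRD3 shared 33 cells against 19.97, DRD1 and DRD2 12 cells against 8.65, and DRD1 and DRD3 2 cells against 2.72. The cells with a pair were deep, with medians of 49668 to 185970 counts, and up to 53.1% of them were called doublets. After thinning to 5000 counts the pairs fell to between 0 and 5 cells each, DRD2 with DRD4 being 5 against 7.26 from the product.

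The genes whose level was most like that of each receptor were found by Pearson correlation of log2(CPM + 1), as a description, over 46 tags that differ in depth and composition and over the 39 clusters. Over tags the closest gene was XBP1 for DRD1 (0.69), AP1G2 for DRD2 (0.70), CWF19L1 for DRD3 (0.58) and SLC9A3-AS1 for DRD4 (0.76). Over clusters it was ENSG00000286163 for DRD1 (0.69), DUSP4 for DRD2 (0.81), TATDN1 for DRD3 (0.64) and DEAF1 for DRD4 (0.75). DEAF1 is the gene next to DRD4, 3527 bp away on the other strand, and CDHR5, the third closest to DRD4 over tags (0.75), lies 11215 bp away with 1 gene between. The receptors were less like each other, with pairwise correlations from -0.093 to 0.25 over tags and from -0.18 to 0.27 over clusters.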

How the data were processed

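One deposited matrix of expected counts (estimated counts per gene and cell, not scaled) was used, with its gene and cell names. Per the submitters' processing notes it was made with Salmon 1.7.0, alevin and Seurat 4.1.1 on hg38; per the labels' protocols cultures were dissociated with papain and polyA RNA was barcoded with a SplitBio kit, at 50000 reads per cell. How reads were divided between genes, and the use of strand, is not given in the sources used here. Receptors, lists and comparisons were chosen with earlier results of these data known.

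Culture tags were read from the cell names. Counts were summed per tag, rounded and tested with edgeR 4.0.16 (robust quasi-likelihood fit, TMM, filterByExpr, adjusted p under 0.05), fitted over all genes. DESeq2 1.42.0, no TMM, no filter, the robust option off, no doublets, a replicate block and each tag left out were alternatives. The script was checked on simulated counts. Same-numbered tags of 3DFusi deviated together (correlations 0.14 to 0.57 in 9 pairs), so its numbers were taken to pair tags. The main 3DFusi fits did not hold this pairing, so their SEs and intervals leave it out, and the block was an alternative.

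No cell failed the filter (at least 500 genes, at most 15% mitochondrial counts). Cells were clustered in scanpy 1.11.5 by leidenalg 0.10.2 (2000 variable genes without receptors and listed genes, 30 components, 20 neighbours, resolution 0.8). A cluster was named from at least 3 markers and 40% of a list, each in 10% of cells at 2-fold; the naming rule was set after clusters were seen. A doublet score against simulated doublets (threshold 0.588) called 4292 cells (9.82%), which were kept. Named genes were the 5 receptors, DRD5 pseudogenes, the 5 most like genes, and up to 8 called signalling genes per comparison with a receptor call.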

Additional observations from a re-analysis of the deposited data

Results flagged for a closer look

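Among groups of 4 tags, 3 of 16 sets of receptor values had a tag standing apart from the others by Dixon's criterion, which chance meets in about 1 of 20 sets. DRD2 in 3DFusi AcCoc was 6.79 CPM in replicate 2, from 30.4 counts, against 1.78 to 2.48 CPM in the other 3 tags. DRD3 in 2DCocu AcMor was 0.221 CPM in replicate 4, from 4.44 counts, against 1.47 to 1.62 CPM in the other 3. DRD3 in 2DCocu Vehic was 1.06 CPM in replicate 1, from 17.2 counts, against 0.498 to 0.542 CPM in the other 3.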

How the results depend on the processing

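The 68 receptor tests, of which 7 were called, were recomputed 955 times, and 827 of these values kept their direction and their side of the threshold. Most of the 955, 864 values, belonged to differences called neither before nor after, whereas 28 lost a call and 5 gained one. No called difference changed direction. The 95 values with another sign all belonged to differences that were not called before or after, and the cause was not tested in any case below. All alternatives for the arrangements without a treatment code, the robust option off between arrangements, and the other resolutions and no filter in the neuron classes were chosen after seeing the data. Depth limits DRD1 and DRD5 most, since 3 counts amount to as much as 0.828 CPM in a tag.

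Calls lost were these, on the log2 scale. On library totals with no TMM factors DRD1 in 2DProto3Wu_ against 2DMono Vehic was -1.88 and DRD3 there was -1.32. Under DESeq2 these were -2.55 and -1.73, and DRD3 in 2DProto4Nic against 2DMono Vehic was -1.74. DESeq2 gave DRD1 in 2DProto2Fjo against 2DProto3Wu_ no adjusted p, so that result is not counted among the lost calls. Without cells called doublets DRD1 in 2DProto3Wu_ against 2DMono Vehic was -2.20. Calls gained were DRD1 in 2DProto2Fjo against 2DProto4Nic with no TMM factors (1.88), DRD4 in 2DProto3Wu_ against 2DProto4Nic with no filter (-0.88), and, in the neuron classes with no filter, DRD3 (1.497) and DRD4 (0.94) in 3DFusi against 2DCocu. With each tag left out in turn, where a lone tag is assumed to vary like the other groups, DRD1 ran from 2.05 to 2.78 in 2DProto2Fjo against 2DProto3Wu_ and -3.22 to -1.77 in 2DProto3Wu_ against 2DMono Vehic. DRD2 ran from 1.15 to 1.39 in 2DProto3Wu_ against 2DMono Vehic and 1.26 to 1.64 in 2DProto4Nic against 2DMono Vehic. DRD3 ran from -2.16 to -1.25 in 2DProto3Wu_ against 2DMono Vehic and -2.11 to -1.199 in 2DProto4Nic against 2DMono Vehic.

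On library totals with no TMM factors, DRD2 was -0.0093 in 2DCocu AcCoc, 0.12 in 3DMono against 2DMono and 0.063 in 2DProto3Wu_ against 2DProto4Nic, and DRD4 was -0.0043 in 3DFusi AcCoc, 0.15 in 3DMono against 2DMono and 0.00026 in 3DFusi against 3DMono. In the neuron classes, DRD2 was -0.034 in 2DCocu AcCoc and -0.020 in 3DFusi against 3DMono, and DRD4 was -0.26 in 3DFusi AcCoc, 0.22 in 3DMono against 2DMono and 0.20 in 3DFusi against 3DMono. In neuron classes drawn at resolution 0.4, DRD2 was -0.33 in 2DCocu AcCoc, -0.28 in 2DCocu AcMor, 0.10 in 3DMono AcDop and -0.072 in 3DFusi against 3DMono, and DRD4 was -0.54 in 3DFusi AcCoc, 0.34 in 3DMono against 2DMono and 0.18 in 3DFusi against 3DMono. In the neuron classes with no filter, DRD2 was -0.053 in 3DFusi against 3DMono, DRD3 was -0.46 in 2DCocu AcMor and -0.60 in 3DFusi AcCoc, and DRD4 was -0.26 in 3DFusi AcCoc, 0.26 in 3DMono against 2DMono, -0.31 in 2DCocu against 2DMono and 0.18 in 3DFusi against 3DMono. Under DESeq2, DRD2 was 0.022 in 3DFusi AcCoc, and DRD3 was -0.027 in 2DProto3Wu_ against 2DProto4Nic. Without cells called doublets, DRD2 was 0.014 in 3DMono against 2DMono, and DRD4 was -0.035 in 3DFusi AcCoc and 0.056 in 3DMono against 2DMono. In neuron classes drawn at resolution 1.2, DRD2 was 0.14 in 3DMono AcDop and -0.0086 in 3DFusi against 3DMono, and DRD4 was -0.28 in 3DFusi AcCoc, 0.24 in 3DMono against 2DMono and 0.15 in 3DFusi against 3DMono. Without the filter on low counts, DRD2 was 0.033 in 3DMono AcDop, and DRD4 was 0.014 in 3DMono against 2DMono. On Vehic tags alone, DRD2 was 0.15 in 3DMono against 2DMono, DRD3 was -0.25 in 3DFusi against 3DMono, and DRD4 was -0.13 in 3DFusi against 2DCocu and 0.51 in 3DFusi against 3DMono. With each tag left out in turn, DRD1 ran from -0.067 to 0.43 in 3DFusi AcCoc, -0.40 to 0.35 in 3DFusi AcMor, -1.14 to 0.0083 in 2DProto3Wu_ against 2DProto4Nic and -0.77 to 0.62 in 2DProto2Fjo against 2DMono Vehic. DRD2 ran from -0.17 to 0.14 in 2DCocu AcCoc, -0.049 to 0.21 in 2DCocu AcMor, -0.55 to 0.36 in 3DFusi AcCoc, -0.60 to 0.29 in 3DFusi AcMor, -0.48 to 0.30 in 3DMono AcDop, -0.15 to 0.16 in 3DMono against 2DMono, -0.15 to 0.19 in 3DFusi against 3DMono and -0.029 to 0.54 in 2DProto2Fjo against 2DProto4Nic. DRD3 ran from -0.31 to 0.40 in 3DFusi AcMor and -0.49 to 0.40 in 2DProto3Wu_ against 2DProto4Nic. DRD4 ran from -0.061 to 0.11 in 3DFusi AcCoc, -0.50 to 0.12 in 2DMono AcMor, -0.49 to 1.41 in 3DMono AcMor, -0.46 to 0.15 in 3DMono against 2DMono, -0.015 to 0.27 in 2DCocu against 2DMono, -0.31 to 0.57 in 3DFusi against 3DMono, -0.017 to 0.72 in 2DProto2Fjo against 2DProto3Wu_, -0.90 to 0.38 in 2DProto2Fjo against 2DProto4Nic, -1.30 to -0.026 in 2DProto3Wu_ against 2DProto4Nic, -0.34 to 0.56 in 2DProto2Fjo against 2DMono Vehic, -0.55 to 0.15 in 2DProto3Wu_ against 2DMono Vehic and -0.34 to 1.02 in 2DProto4Nic against 2DMono Vehic.

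No replicate block changed a call of a receptor. With the block for the tag number, which pairs tags in 3DFusi, DRD3 was -0.027 and DRD4 -0.052 in 3DFusi AcCoc, and DRD1 was -0.069 in 3DFusi AcMor. In the other arrangements pairing was not established. Correlations of same-numbered tags ran from -0.30 to 0.11 in 2DCocu, -0.13 to 0.12 in 2DMono and 0.062 to 0.24 in 3DMono. Those of differently numbered 3DMono tags ran from -0.24 to -0.062. With 2 tags a group the deviations from the group mean mirror each other, so this check cannot decide for 2DMono and 3DMono. The block moved the number of genes called from 205 to 40 in 2DCocu AcMor and from 0 to 36 in 3DMono AcMor.

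Of all genes, DESeq2 called 2028 in 2DCocu AcCoc (edgeR 1281), 725 in 2DCocu AcMor (edgeR 205), 1551 in 3DFusi against 3DMono (edgeR 360), 1800 in 3DProto1For (edgeR 416) and 835 in 3DProto2Xia (edgeR 127) against 3DMono Vehic. With no filter edgeR called 392 in 2DCocu AcMor, 38 to 746 in the 4 comparisons of 2DMono and 3DMono treatments, 628 in 3DFusi against 3DMono, 694 in 3DProto1For against 3DMono Vehic and 325 in 3DProto2Xia against 3DMono Vehic. Without cells called doublets it called 724 in 2DCocu AcMor, 188 in 3DFusi against 3DMono and 242 in 3DProto1For against 3DMono Vehic. In the neuron classes at resolution 0.4 it called 2428 in 2DCocu against 2DMono (1125 at 0.8), and with no filter there 158 in 2DCocu AcCoc, 94 in 2DCocu AcMor and 720 in 3DFusi against 3DMono. On Vehic tags alone, over all cells, it called 3248 in 3DMono against 2DMono (7831 on all tags), 6023 in 3DFusi against 2DCocu (10339), 3331 in 2DCocu against 2DMono (6345) and 5 in 3DFusi against 3DMono (360).

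Shares of cells with a count fell on thinning as given above. With any entry above 0 the DRD3 share was 1.35%, and with entries of at least 1 the DRD5 share was 0. DRD2 in the neuron classes was 3.80 CPM at resolution 0.4 against 4.20.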
